A study of Mus musculus with 6 samples.

Results

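The genes described here are 10 regulators of entry into mitosis, chosen by name from the 17463 genes in the deposited tables: Cdk1, Ccnb1, Ccnb2, Ccna2, Cdc25b, Cdc25c, Plk1, Aurka, Wee1 and Foxm1. All 10 were found and all 10 were among the 11277 genes that passed the filter on low counts. They were measured by RNA-seq in erythroblasts, the nucleated precursors of red blood cells, from C57BL/6J mouse fetal liver. Cells without TER119, a surface protein gained late in the erythroid lineage, were cultured for 30 h with erythropoietin (Epo) and with 40 µM cholesterol or without it, and the study's methods state that the cells that had become TER119+ were then sorted. There were 3 control samples and 3 cholesterol samples, numbered 1 to 3 in each group. The labels call the controls untreated, the study calls them vehicle-treated, and neither says whether a number stands for a litter, a culture or a day, so p-values measure the spread between these samples, which may be technical. The study asks how added cholesterol affects the exit of late erythroblasts from the cell cycle.

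Cells enter mitosis when CDK1, bound to a B-type cyclin, becomes active. WEE1 keeps the kinase off by phosphorylating it, and the CDC25 phosphatases take that phosphate away. Cyclin A2 acts earlier, in S phase and G2, and Aurora A with its cofactor Bora activates PLK1, which in turn helps to switch on CDC25 and to remove WEE1. FOXM1 is a transcription factor that, with B-MYB and the MuvB complex, drives the late cell cycle genes. Erythroblasts divide several times as they mature and then leave the cycle before the nucleus is expelled.

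The total count per sample lay between 19826849 and 20061724 estimated reads, and the 10 genes had between 867 and 24907.4 counts in a sample, far above the floor of 3 counts, or 0.15 CPM (counts divided by library size), taken as not detected. Abcg1, which encodes a cholesterol exporter, rose from 5.89 ± 1.35 to 97.8 ± 3.55 CPM (SD, n = 3), on the scale used throughout, CPM after edgeR's TMM scaling, and was the 1 gene called with condition alone in the edgeR model (adjusted p = 0.00292). All 9 erythroid markers used, among them the globins, Alas2 and Slc4a1, were detected. Their summed levels were 126600 to 166800 CPM in control and 111900 to 152300 CPM with cholesterol, lower in each same-numbered pair. All 9 were lower on average with cholesterol. When the replicate number was in the model, 3 of the 9 were called lower, against 5.2% of all genes. Genes of other cells were present at low levels. The 10 neutrophil markers, none at 0, summed to between 72.6 and 728 CPM in control and between 44.0 and 304 CPM with cholesterol, highest in sample 3 of each group. All 10 were lower on average, and 9 of the 10 were called lower in that model, against 5.2% of all genes. The 9 macrophage markers summed to between 18.6 and 131 CPM in control and between 13.9 and 61.7 CPM with cholesterol. On average 8 were lower and 1 higher. In that model 5 of the 9 were called lower, against 5.2% of all genes, and 1 higher, against 1.65%. The 6 megakaryocyte markers summed to between 80.2 and 95.1 CPM and between 77.6 and 86.6 CPM. On average 4 were lower and 2 higher, and 1 of the 6 was called lower in that model, against 5.2% of all genes. Of 8 mast cell and basophil markers 6 were in the table, and they summed to at most 18.5 CPM, with Tpsb2 at 0 in every sample. Both of the 2 that were tested were called lower in that model, against 5.2% of all genes. The part of these other cells in the results below was not tested.

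Many late cell cycle genes share short promoter elements, the CCAAT box bound by NF-Y and the cell cycle genes homology region (CHR) bound by the MuvB complex. RefSeq promoter sequences of the build GRCm38.p6, 250 bases before to 50 bases after the start, were found for 6 of the 10 genes: Cdk1, Ccnb1, Ccnb2, Cdc25b, Plk1 and Aurka. The CCAAT box was searched as CCAAT or, on the other strand, ATTGG, and the CHR as TTTGAA, its reverse TTCAAA, or TTCGAA. The stretches before the start are shown for Cdc25b, which had the smallest p of the 10 in the model with the replicate number, and for Cdk1, Ccnb2 and Aurka, each with a pair of CCAAT boxes 32 or 33 bases apart. Capitals mark CCAAT boxes and, in Cdk1, a CHR. The stretch of Cdk1 ends short of the start, where an annotated exon of another transcript of the gene begins. Starts are those of 1 RefSeq transcript a gene, and those of Cdc25b and Aurka lie inside the span of the gene given further on, so that these stretches are within the gene. Each is given 5′ to 3′ on the strand of the gene. The stretches are chr2:131186838-131186947 (plus strand) for Cdc25b, chr10:69352939-69353022 (minus) for Cdk1, chr9:70421555-70421664 (minus) for Ccnb2 and chr2:172370571-172370680 (minus) for Aurka.
Cdc25b: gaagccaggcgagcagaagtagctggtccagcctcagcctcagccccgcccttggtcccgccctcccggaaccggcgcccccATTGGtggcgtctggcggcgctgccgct
Cdk1: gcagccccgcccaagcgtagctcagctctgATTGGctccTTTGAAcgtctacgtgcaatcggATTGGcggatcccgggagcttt
Ccnb2: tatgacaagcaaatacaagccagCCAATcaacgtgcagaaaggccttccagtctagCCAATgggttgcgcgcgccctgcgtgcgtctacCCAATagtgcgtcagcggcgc
Aurka: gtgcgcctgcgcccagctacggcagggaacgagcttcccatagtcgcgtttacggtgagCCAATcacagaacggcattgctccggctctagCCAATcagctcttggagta

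All 6 promoters held a CCAAT box, against 38.5% of the 11484 promoters that matched genes tested here. A CHR was found in 5 of the 6, all but Ccnb1, against 14.3% of those promoters. In Cdc25b, Plk1 and Aurka it lay after the start, at bases 8, 31 and 33. In Ccnb2 it lay at bases −167 and 5, and in Cdk1 at bases −71 and −15. The CCAAT boxes of Ccnb1 and of Aurka lay 32 bases apart, and the 3 boxes of Ccnb2 were each 33 bases apart. Of the 3 boxes of Cdk1, those at bases −80 and −48 lay 32 bases apart, and the other, at base −208, was 128 bases from its neighbour. A pair of boxes 31 to 33 bases apart, a rule chosen after the sequences were seen, was present in 4 of the 6 promoters and in 1.74% of the promoters of genes tested. In 47 promoters of partner genes described further on, 29.8% held a CHR and 2.13% such a pair. These are matches of letters and were not tested as binding sites.

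Per length, in the authors' FPKM, the control levels of the 10 genes spanned from 13.6 ± 1.66 for Wee1 to 430.1 ± 9.35 for Ccna2 (SD, n = 3). Cyclin A2 and B2 mRNAs stood apart at the top, with Ccnb2 at 255 ± 12.7 FPKM. Plk1 at 204 ± 14.5, Aurka at 192 ± 4.76, Ccnb1 at 182 ± 2.05 and Cdc25b at 178 ± 18.3 FPKM followed close together. Control samples of Plk1 and Aurka overlapped, as did those of Ccnb1 and Cdc25b, while Aurka was above Ccnb1 in every control sample. Cdk1 stood below its 3 cyclins, at 80.7 ± 3.74 FPKM, followed by Foxm1 at 43.5 ± 2.46 and Cdc25c at 31.7 ± 2.66 FPKM. The order of the 10 means was the same with cholesterol, from 405 ± 14.9 FPKM for Ccna2 to 15.1 ± 0.483 FPKM for Wee1.

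**Figure D1:**
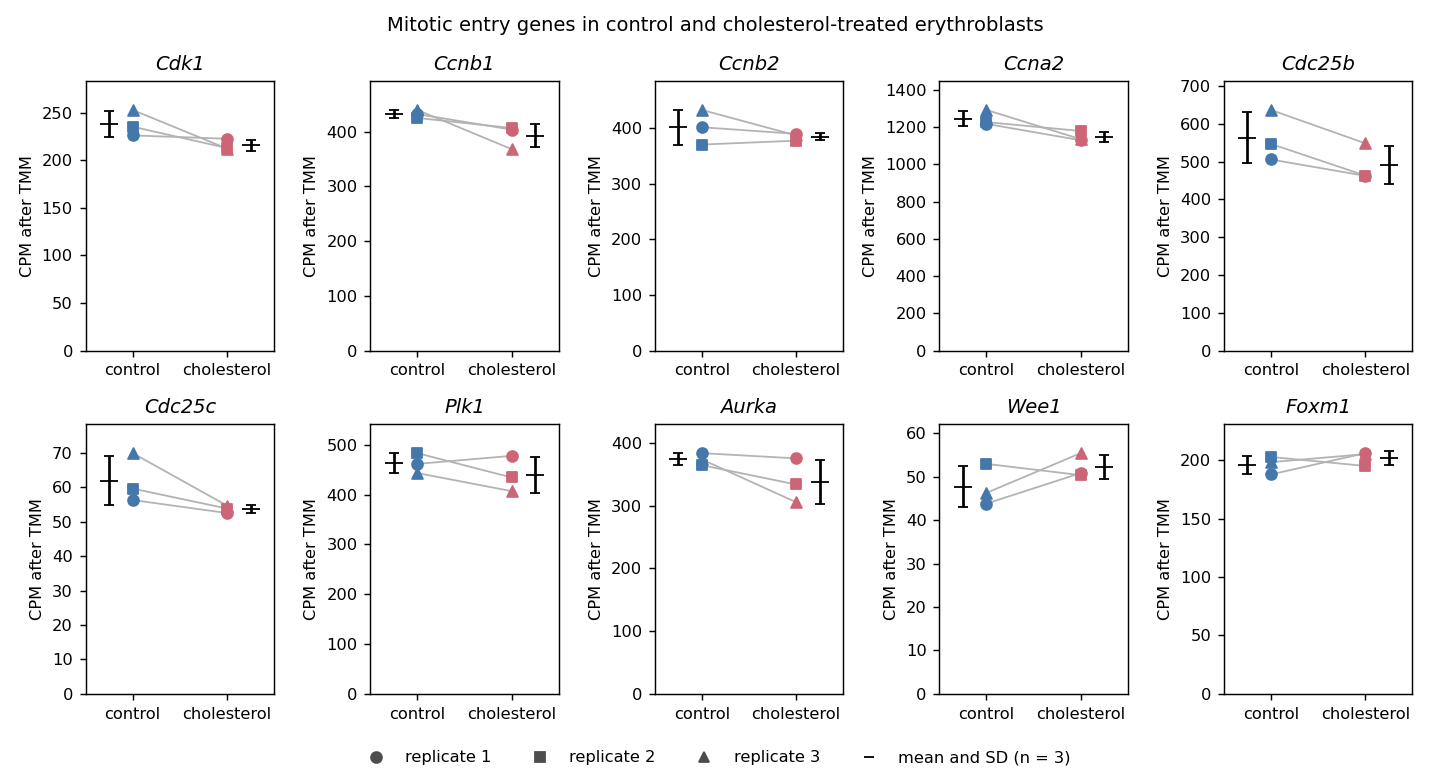
CPM after TMM scaling (y axis from 0) of the 10 genes in control (blue) and cholesterol (red) samples, with same-numbered samples joined by a grey line and the mean with its SD (n = 3) beside the points. Cdk1, Ccnb1, Ccna2 and Cdc25c are lower in all 3 cholesterol samples than in any control sample, and Cdc25b is lower in each pair.

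Of the 10 genes, 8 were lower on average with cholesterol and 2, Wee1 and Foxm1, were higher, where 47.9% of all genes tested were lower. With all samples, the largest of the 10 differences were those of both activating phosphatases, Cdc25b and Cdc25c. This order rested on single samples. With condition alone, Aurka at −0.15 and Ccnb1 at −0.13 exceeded both in size without control sample 3, Aurka at −0.23 did so without cholesterol sample 1, and Ccnb1 at −0.17 exceeded Cdc25b at −0.16 without cholesterol sample 2. With the replicate number in the model and without replicate 2, Wee1 had the largest difference in size, at 0.24. In edgeR's quasi-likelihood test with condition alone, 0 of the 10 passed an adjusted p of 0.05, against 0.00887% of all genes higher and 0% lower, and the adjusted p was 0.9998 for each of the 10. At an unadjusted p under 0.05 the count was also 0 of the 10, against 0.718% of all genes higher and 1.92% lower (2.63% in either direction). DESeq2 with condition alone called 0 of the 10, beside 3 genes higher and 28 lower among all 11277 tested. Same-numbered samples deviated together across all genes, so each result is also given from a model in which the replicate number is a block. The blocked model called 2 of the 10, Cdc25b and Cdc25c, against 6.85% of all genes in either direction. Both were lower, against 5.2% of all genes, and 0 of the 10 were called higher, against 1.65%. At an unadjusted p under 0.05 the block gave 6 of the 10 lower, against 11.6% of all genes, and 0 higher, against 8%.

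Cdc25b, which encodes a phosphatase thought to start CDK1 activation at the centrosome, is at chr2:131186436-131198511. It stood at 506, 547 and 637 CPM in control samples 1 to 3 and at 462.5, 463 and 548 CPM in cholesterol samples 1 to 3. Sample 3 was the highest of each group, so that the groups overlapped although each cholesterol sample lay below its same-numbered control. The mean was 563 ± 67.0 CPM in control and 491 ± 49.4 CPM with cholesterol (SD, n = 3). With condition alone its log2 fold change was −0.20 (standard error, SE, 0.11, 95% interval −0.47 to 0.08, unadjusted p = 0.133). In the blocked edgeR model Cdc25b fell by 0.19 on the log2 scale (SE 0.04, 95% interval −0.28 to −0.11, adjusted p = 0.00548). The call under the block also came from DESeq2 (adjusted p = 0.0023). In edgeR it was lost when both samples of replicate 2 were left out (log2 fold change −0.17, adjusted p = 0.0903). Without replicate 3 the log2 fold change under the block was −0.19 (adjusted p = 0.00105). With condition alone it was −0.10 without control sample 3 and −0.28 without cholesterol sample 3.

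Cdc25c, the related phosphatase that acts on CDK1 in the nucleus, was much less abundant. It stood at 56.3, 59.6 and 69.9 CPM in control samples 1 to 3 and at 52.5, 53.8 and 54.6 CPM in cholesterol samples 1 to 3. The groups did not overlap, and the cholesterol samples lay close together. The mean differed by −13.3%, from 61.9 ± 7.10 to 53.6 ± 1.09 CPM (SD, n = 3). With condition alone this was −0.21 on the log2 scale (SE 0.09, 95% interval −0.43 to 0.02, unadjusted p = 0.0674), and in the blocked edgeR model Cdc25c fell by 0.20 (SE 0.06, 95% interval −0.32 to −0.08, adjusted p = 0.0364). The call under the block was lost in DESeq2 (adjusted p = 0.376), with total counts in place of TMM (adjusted p = 0.0934), and without any one pair (adjusted p = 0.0529, 0.1135 and 0.276 in edgeR without replicates 1 to 3). Its blocked log2 fold change was −0.20 in DESeq2, −0.17 with total counts, and −0.25, −0.23 and −0.13 without replicates 1 to 3. With condition alone it was −0.11 without control sample 3 and −0.27 without control sample 1.

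The third gene of the phosphatase family, Cdc25a, which acts already at the G1/S transition, was not among the 10 and was chosen after its values were seen. It stood at 114 ± 17.2 CPM in control and at 125 ± 11.5 CPM in cholesterol samples (SD, n = 3). The groups overlapped. In edgeR with condition alone its log2 fold change was 0.13 (SE 0.13, unadjusted p = 0.348), and edgeR with the block gave an adjusted p of 0.0958. It was higher with cholesterol in 3 of 3 pairs, as were 20% of all genes. Cdc25b and Cdc25c were lower in 3 of 3, as were 20.1% of all genes.

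The mitotic kinase and its cyclins showed smaller differences. Cdk1, at chr10:69335146-69352912, stood at 226, 235 and 253 CPM in control samples 1 to 3 and at 222, 213 and 212 CPM in cholesterol samples 1 to 3. All cholesterol samples lay below all controls, by a narrow margin in pair 1. The log2 fold change was −0.14 with condition alone (SE 0.07, 95% interval −0.30 to 0.02, unadjusted p = 0.0710), and the block gave an adjusted p of 0.0832. When CPM were scaled by total counts alone, Cdk1 was higher with cholesterol in pair 1, by 0.03 on the log2 scale, and the groups overlapped.

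Ccnb1, which encodes cyclin B1, the main partner of CDK1 at the onset of mitosis, is at chr13:100778739-100786486. It stood at 432, 425 and 439.7 CPM in control samples 1 to 3 and at 404, 407 and 368 CPM in cholesterol samples 1 to 3. The controls lay within a narrow range and above every cholesterol sample, on the scale of total counts as well. The log2 fold change was −0.14 with condition alone (SE 0.06, 95% interval −0.29 to 0.02, unadjusted p = 0.0718), and the block gave an adjusted p of 0.0674. Without cholesterol sample 3 it was −0.09. Of the 50-base stretches in Ccnb1 transcripts, as long as the reads, 40.6% occur also in annotated pseudogenes, so its level may depend on how the authors' counting placed such reads. Its estimated counts were whole in 6 of 6 samples. The part of such reads in its level was not tested.

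Ccnb2, which encodes cyclin B2 and is at chr9:70407689-70421554, stood at 401, 370.3 and 433 CPM in control samples 1 to 3 and at 389.6, 377 and 387 CPM in cholesterol samples 1 to 3. The cholesterol samples lay inside the range of the controls. It was lower in 2 of 3 pairs, but by total counts alone it was higher in pairs 1 and 2, by 0.0092 and 0.03 on the log2 scale. Its log2 fold change was −0.06 with condition alone (SE 0.07, 95% interval −0.24 to 0.12, unadjusted p = 0.429), and the block gave an adjusted p of 0.507. With single samples left out it ranged from −0.0042 without control sample 3 to −0.12 without control sample 2.

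Ccna2, which encodes cyclin A2 and was the most abundant of the 10, is at chr3:36564865-36573038. It stood at 1218, 1228 and 1293 CPM in control samples 1 to 3 and at 1129.8, 1179.6 and 1136 CPM in cholesterol samples 1 to 3, without overlap. The log2 fold change was −0.12 with condition alone (SE 0.06, 95% interval −0.26 to 0.02, unadjusted p = 0.0897), and the block gave an adjusted p of 0.0877. The groups overlapped on the scale of total counts, although each cholesterol sample was still below its same-numbered control. Ccna2 overlaps Exosc9 on the opposite strand, whose transcripts hold 12.8% of its 50-base stretches, and its estimated counts were not whole in any sample. Exosc9 itself had between 815.7 and 1016.85 counts a sample. Summed with those of Ccna2, its counts were whole in 3 of 6 samples. The sources used here do not say whether counting used strand.

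**Figure D2:**
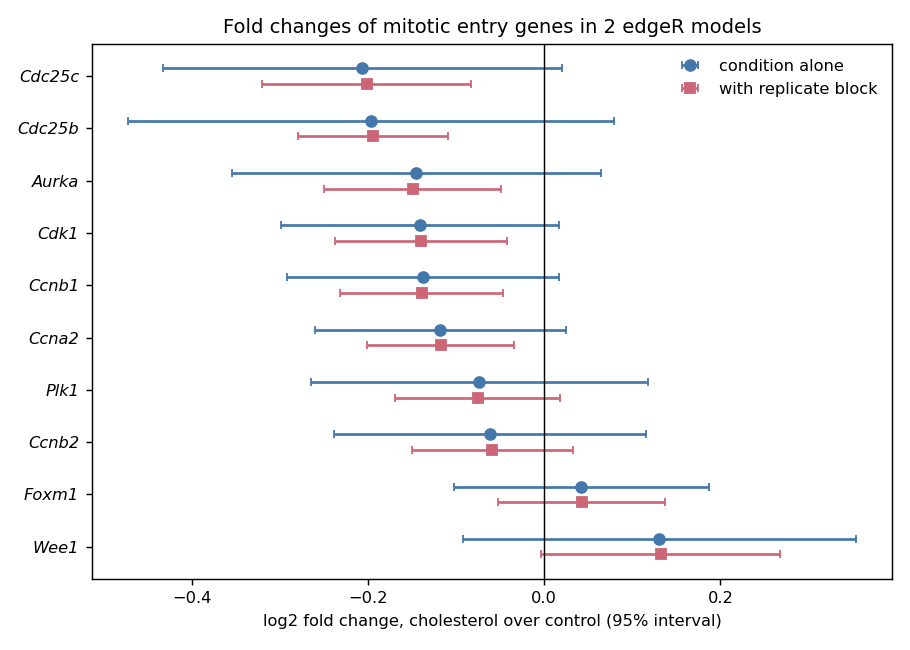
Log2 fold change of cholesterol over control (x axis) with its 95% interval for the 10 genes, from edgeR with condition alone (blue circles) and from the blocked model (red squares). The block left the fold changes nearly as they were and narrowed the intervals, which exclude 0 for Cdc25b, Cdc25c, Aurka, Cdk1, Ccnb1 and Ccna2 before adjustment over all genes.

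Both upstream kinases were lower on average, with overlapping groups. Aurka, which encodes Aurora A and is at chr2:172356190-172370886, stood at 384, 364 and 373.5 CPM in control samples 1 to 3 and at 375, 334 and 305 CPM in cholesterol samples 1 to 3. Cholesterol sample 1 was inside the range of the controls and the other two were below it. Its log2 fold change was −0.07 without cholesterol sample 3 and −0.23 without cholesterol sample 1, with condition alone. The log2 fold change was −0.15 with condition alone (SE 0.09, 95% interval −0.36 to 0.06, unadjusted p = 0.143), and the block gave an adjusted p of 0.0737. By total counts alone, pair 1 was higher with cholesterol by 0.02 on the log2 scale.

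Plk1, which encodes polo-like kinase 1 and is at chr7:122159435-122169884, stood at 461, 483 and 443 CPM in control samples 1 to 3 and at 478, 434 and 407 CPM in cholesterol samples 1 to 3. It was higher with cholesterol in pair 1 and lower in the other pairs, and the groups overlapped. The log2 fold change was −0.07 with condition alone (SE 0.08, 95% interval −0.27 to 0.12, unadjusted p = 0.388), and the block gave an adjusted p of 0.379. With single samples left out it ranged from −0.02 without cholesterol sample 3 to −0.14 without cholesterol sample 1. Of its 50-base stretches 6.7% occur also, on the same strand, in transcripts of other annotated genes.

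Wee1, which encodes the inhibitory kinase and is at chr7:110122059-110143299, had the largest positive difference of the 10. It stood at 43.8, 53.0 and 46.3 CPM in control samples 1 to 3 and at 50.9, 50.4 and 55.5 CPM in cholesterol samples 1 to 3. It was higher with cholesterol in pairs 1 and 3 and lower in pair 2, where control sample 2 was the highest of its group. The log2 fold change was 0.13 with condition alone (SE 0.09, 95% interval −0.09 to 0.35, unadjusted p = 0.205), and the block gave an adjusted p of 0.269. With single samples left out and condition alone, it ranged from 0.08 without control sample 1 to 0.21 without control sample 2, and with a pair left out of the blocked model from 0.07 without replicate 3 to 0.24 without replicate 2.

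Foxm1, at chr6:128362994-128375886, stood at 188, 203 and 198 CPM in control samples 1 to 3 and at 206, 195 and 205 CPM in cholesterol samples 1 to 3, and the groups overlapped. Its log2 fold change was 0.04 with condition alone (SE 0.06, 95% interval −0.10 to 0.19, unadjusted p = 0.506), and the block gave an adjusted p of 0.685. It was higher in 2 of 3 pairs. With a pair left out of the blocked model, its log2 fold change ranged from −0.000595 without replicate 1 to 0.09 without replicate 2.

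The median log2 fold change of the 10 genes was −0.13, beside 0.01 over all genes tested. All cholesterol samples lay below all controls for 4 of the 10 genes, Cdk1, Ccnb1, Ccna2 and Cdc25c, against 4.28% of all genes, and above them for 0, against 3.72%. Within same-numbered samples, 6 of the 10 were lower in 3 of 3 pairs, against 20.1% of all genes, and 0 were higher in 3 of 3, against 20%. By total counts in place of TMM, such separation held for 2 of the 10, Ccnb1 and Cdc25c, against 3.05% of genes, and 4 were lower in 3 of 3 pairs, against 14.8%. A change in the share of cells in G2 or mitosis and a change in mRNA per cell cannot be told apart in bulk RNA.

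The median difference of the 10 genes was −0.04 in pair 1, −0.10 in pair 2 and −0.20 in pair 3. Pair 3 held the most negative difference for 6 of the 8 genes that were lower on average, and pair 2 for Cdc25b and Plk1. The summed erythroid, neutrophil, macrophage, and mast cell and basophil markers were all highest in sample 3 of each group. Without replicate 3 in the model with the block, the median log2 fold change of the 10 genes was −0.08, and it was also −0.08 without cholesterol sample 3 in the model with condition alone. The summed level of the 10 genes was 3916, 3968 and 4186 CPM in control samples 1 to 3 and 3770.04, 3706 and 3679 CPM in cholesterol samples 1 to 3, so that it was lower in all cholesterol samples.

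**Figure D3:**
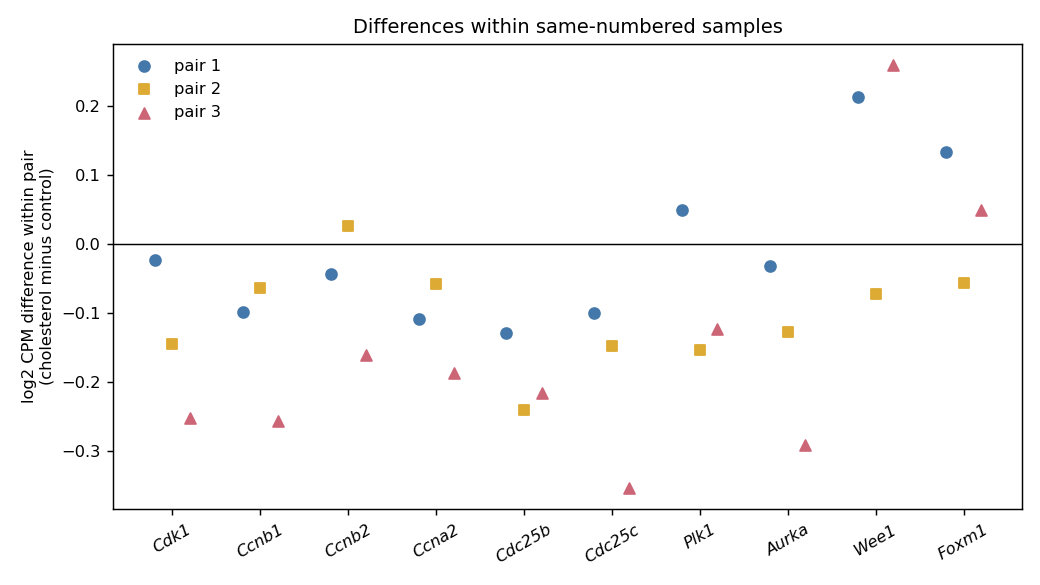
Difference in log2 CPM (y axis, cholesterol minus control) within same-numbered samples for the 10 genes, with a symbol for each pair. Points of Cdk1, Ccnb1, Ccna2, Cdc25b, Cdc25c and Aurka all lie below 0, and the median over the genes goes from −0.04 in pair 1 to −0.20 in pair 3.

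Genes that work beside these 10 were described from 3 lists. Of 17 mitotic entry partners, which include CDK1-binding subunits, cofactors of Aurora A and the Greatwall branch that holds back the opposing phosphatase, 17 were tested. Without the block 0 of the 17 were called, against 0.00887% of all genes, and with it also 0, against 6.85%. Among them 12 were lower and 5 higher on average, with a median log2 fold change of −0.03, and 4, Bora, Cks1b, Cks2 and Ccnf, were lower in every cholesterol sample than in any control sample, against 4.28% of all genes. By total counts in place of TMM this held for 2, Bora and Cks1b, against 3.05% of genes. The smallest p was that of Bora, the cofactor through which Aurora A activates PLK1, which stood at 128 ± 3.35 CPM in control and at 116 ± 2.51 CPM in cholesterol samples (SD, n = 3). Its log2 fold change was −0.14 (SE 0.06, unadjusted p = 0.0464), and edgeR with the block gave an adjusted p of 0.0713. Cks1b, a small subunit of cyclin-dependent kinases, stood at 75.9 ± 2.65 and 68.7 ± 3.39 CPM (log2 fold change −0.14). Ccnf, which encodes the ubiquitin ligase subunit cyclin F, stood at 458 ± 19.8 and 424 ± 6.21 CPM (log2 fold change −0.11). Of the 17 partners, 6 were lower in 3 of 3 pairs, against 20.1% of all genes, and 2 were higher, against 20%. By total counts alone Ccnf was higher in pair 1, by 0.01 on the log2 scale.

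The 12 subunits of MuvB and DREAM, the complexes that occupy the CHR with FOXM1 and B-MYB or with repressive E2F proteins, showed no common direction after TMM scaling. Among them 8 were higher and 4 lower on average, with a median log2 fold change of 0.03. In either model 0 of the 12 were called, against 0.00887% of all genes with condition alone and 6.85% with the block. The groups overlapped for every one of the 12, while by total counts alone Rbl2 was higher in every cholesterol sample than in any control sample, 1 of 12 against 5.27% of genes. After TMM, 3 of the 12 were higher in 3 of 3 pairs, against 20% of all genes, and 2 were lower, against 20.1%. By total counts alone, 6 were higher in 3 of 3 pairs, against 29.2% of genes, and 1 was lower, against 14.8%. The smallest p values were those of E2f5 (log2 fold change −0.27, SE 0.19), Rbl2 (0.10, SE 0.08) and Lin52 (0.14, SE 0.12).

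Of the 20 subunits and regulators of the anaphase-promoting complex (APC/C), the ubiquitin ligase that destroys cyclins A and B to end mitosis, 11 were higher and 9 lower on average, with a median log2 fold change of 0.01. With condition alone 0 of the 20 were called, against 0.00887% of all genes, and with the block 1 of 20 was called lower, against 5.2% of all genes. This was Ube2s, which encodes the enzyme that extends ubiquitin chains on APC/C substrates. Ube2s stood at 522 ± 39.8 CPM in control and at 469.6 ± 23.6 CPM in cholesterol samples (SD, n = 3), with overlap, and was lower in 3 of 3 pairs. Its log2 fold change was −0.15 (SE 0.08), and edgeR with the block gave an adjusted p of 0.0476. With DESeq2 and the block, and with total counts or DESeq2's size factors in edgeR with the block, 0 of the 49 partner genes were called. Among all 11277 genes these settings called, in that order, 41, 277 and 161 higher and 248, 436 and 559 lower.

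**Figure D4:**
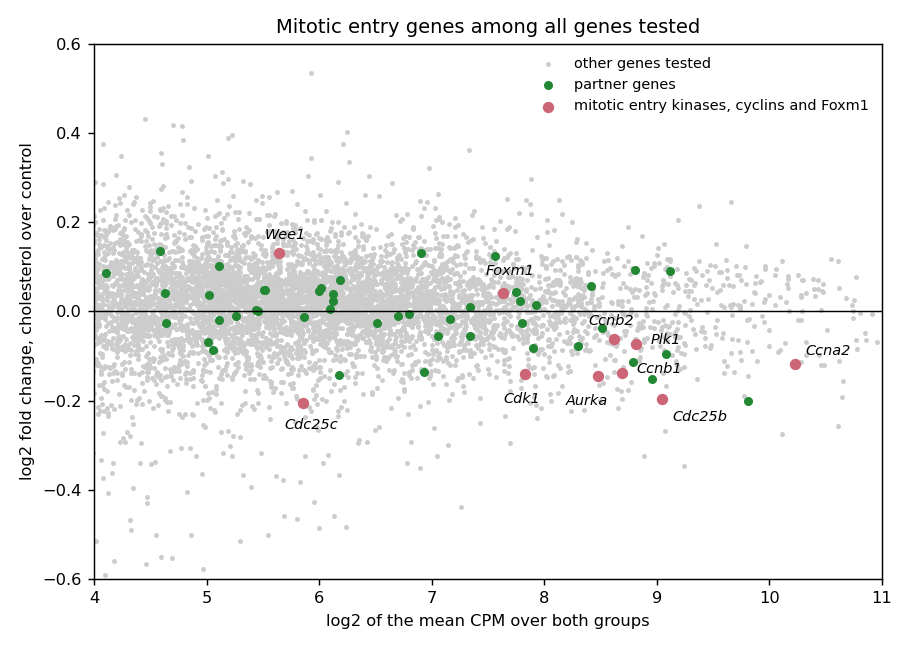
Log2 fold change of cholesterol over control (y axis) against the log2 of the mean CPM over both groups (x axis) for the 10 genes (red), the partner genes (green) and other genes tested (grey), with 5062 genes outside the axes. The 10 genes lie among the abundant genes, with 8 of them below 0, and Cdc25c, Cdc25b and Aurka have the most negative values among them.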

How the data were processed

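RNA-seq libraries of 3 control and 3 cholesterol samples were compared. The authors deposited expected counts (estimated reads per gene) and a normalized table taken as FPKM, whose unit the file does not name. The submitters' processing notes name HISAT2 2.0.4, Bowtie2 2.2.5, RSEM 1.2.12, DESeq2 1.4.5 and the build GRCm38.p6, without their roles. The annotation and any use of strand in counting are not given in the sources used here. Expected counts were rounded, reduced by edgeR's filterByExpr (minimum count 10, minimum total 15), scaled by TMM and tested in edgeR 4.0.16 (R 4.3.3) with the robust quasi-likelihood test, two-sided, with Benjamini-Hochberg adjustment over 11277 genes. Standard errors were derived from the F statistic. The methods were tested on simulated data. The 3 counts that were taken as the floor correspond to 0.15 CPM.

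Same-numbered samples deviated together from their group means (correlations of 0.729, 0.348 and 0.825 across genes for numbers 1 to 3, which come from the sample labels, and, over the 10 genes alone, 0.818, −0.266 and 0.548). Hence the model with the replicate number as a block is given beside the planned model with condition alone. No 2 libraries were copies (chi-square per degree of freedom at least 8.77). Groups of 3 allow an exact permutation test no p below 0.1, so none is printed. Alternatives covered DESeq2 1.42.0 and its size factors in edgeR, other filters, limma 3.58.1 on log2(FPKM + 1) and log2(FPKM + 0.1), total counts in place of TMM (chosen after seeing the data), and samples or pairs left out. Positions and promoters came from RefSeq on GRCm38.p6 and shared 50-base stretches from GENCODE transcripts.

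The 10 genes and the lists were chosen with earlier results of these data known. All 10 were named. Of each partner list, genes called in either model were named, or else the 3 with the smallest p. Cdc25a and Cks2 lie outside this rule. An erythroid marker of the planned list is not reported here.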

Additional observations from a re-analysis of the deposited data

How the results depend on the processing

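With condition alone, edgeR called 1 gene higher and 0 lower, and the counts were the same with DESeq2's size factors, with total counts, with other filters and in limma. DESeq2's Wald test called 3 higher and 28 lower. The replicate block gave 186 higher, 586 lower and 2 of the 10 genes. With the block, DESeq2 gave 41, 248 and 1, edgeR with total counts 277, 436 and 1, and edgeR with DESeq2's size factors 161, 559 and 2, these 2 edgeR settings chosen after seeing the data. With both samples of replicates 1, 2 or 3 left out of the blocked model, 118, 67 and 210 genes were higher, 703, 229 and 516 lower, and 1, 0 and 1 of the 10 genes were called. With single samples left out, 1 gene was higher in each case and 0 to 7 were lower, 7 without control sample 3 and 1 without cholesterol sample 3, and 0 of the 10 genes were called. The median log2 fold change of the 10 genes stayed between −0.15 and −0.08 over 20 alternatives. Foxm1 alone changed sign, to −0.000595 without replicate 1 in the blocked model. The cause of these differences was not tested. Among the 10 genes and the 49 partner genes, the block changed the calls of Cdc25b, Cdc25c and Ube2s and no other. With 3 samples a group, standard errors of the 10 log2 fold changes were between 0.06 and 0.11 with condition alone.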
